A study of Mus musculus with 8 samples.

Results

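The MAP kinase phosphatases of the Dusp family were followed in the cerebellum of mutant mice of the gene Capicua (Cic), whose product represses genes that receptor tyrosine kinases switch on. The 10 genes were Dusp1, Dusp2, Dusp4, Dusp5, Dusp6, Dusp7, Dusp8, Dusp9, Dusp10 and Dusp16. A probe set was taken where the platform annotation gave it 1 of these symbols alone, which gave 51 probe sets, 3 to 9 per gene, and 10 of the 20353 genes measured. Probe sets carry log2 values after RMA, the authors' background correction, quantile normalisation and summary, and were averaged into 1 value per gene. The cerebella came from 4 Cic-L-null mice, whose titles read Cicnull, and 4 wild-type mice. All 8 animals were 28 days old and had a mixed Swiss Webster (CD-1) background, and each gave 1 Affymetrix Mouse Gene 1.0 ST array from whole-cerebellum RNA. The labels do not describe the allele further, nor the cells in which it acts.

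The MAP kinases ERK, JNK and p38 are switched on by phosphorylation of a threonine and a tyrosine in their activation loop, and the dual specificity phosphatases of this family remove both phosphates. By textbook grouping, Dusp1, Dusp2, Dusp4 and Dusp5 are nuclear enzymes whose genes are induced by growth factors, stress or neuronal activity. Dusp6, Dusp7 and Dusp9 are cytoplasmic and prefer ERK, and Dusp8, Dusp10 and Dusp16 prefer JNK and p38. Several of the genes are themselves induced by ERK, so that their products form a negative feedback, and ERK signalling relieves repression by Capicua. Dusp4 and Dusp6 are among the genes that Capicua is known to repress in mammalian cells.

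The genotype was visible in Cic itself, with log2 values of 7.50, 7.48, 7.62 and 7.54 in Cic-L-null mice, against 8.74, 8.57, 8.63 and 9.19 in wild-type mice. Purkinje cell and granule cell markers marked the tissue as cerebellum in all arrays. The mean over 5 Purkinje cell genes lay from 10.96 to 11.07 in Cic-L-null mice and from 10.90 to 11.10 in wild-type mice, and that over 6 granule cell genes from 11.77 to 11.83 in Cic-L-null mice and from 11.76 to 11.84 in wild-type mice. Y-linked genes were high in 3 Cic-L-null and 2 wild-type arrays. They were low, at 4.53 to 4.58, in Cic-L-null replicate 3 and wild-type replicates 2 and 3. Xist, which female cells express, was 10.55 to 10.60 in these arrays and 5.17 to 5.46 in the others. By these levels the low arrays came from female mice, and the sexes were not balanced between the groups. The labels name a Trizol and RNeasy extraction for wild-type replicate 1 and only a manufacturer's protocol for the rest, and values without it are given where they moved by over 1.5 times or bear on a call.

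Moderated tests in both directions with limma, adjusted over all 20353 genes by Benjamini-Hochberg, called 2 of the 10 genes at an adjusted p under 0.05, Dusp4 and Dusp6, both higher in Cic-L-null mice. Over all genes 0.138% were called, 0.0884% higher and 0.0491% lower. Since the 10 genes were chosen with earlier results of these data known, this excess is a description. The 4 Cic-L-null arrays lay above all 4 wild-type arrays in 4 genes, Dusp4, Dusp5, Dusp6 and Dusp10, where 3.02% of all genes did so. They lay below them in 0 of the 10 genes by this measure, against 2.92% of all genes. At an unadjusted p under 0.05 there were 5 genes, Dusp2 besides these 4, against 9.26% of all genes. The median difference of the 10 genes was 0.045 log2 units, with 5 above and 5 below 0, while the median over all genes was -0.0071. Each of the 3 groups held differences of both signs.

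**Figure D1:**
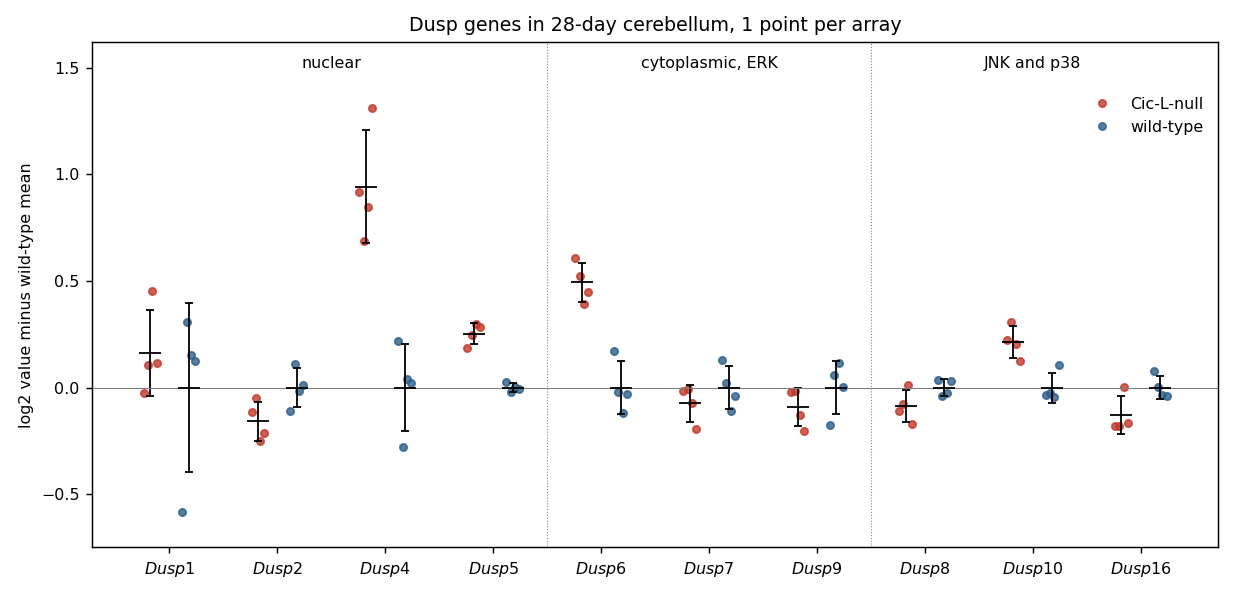
Log2 value of each Dusp gene minus its wild-type mean, 1 point per array (Cic-L-null red, wild-type blue, n = 4 each), with the mean and SD in black, in the order nuclear, cytoplasmic and JNK or p38 phosphatases. The 4 Cic-L-null points of Dusp4, Dusp5, Dusp6 and Dusp10 lie above all 4 wild-type points, and 1 wild-type point of Dusp1 lies far below the others.

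Among the nuclear phosphatases, Dusp4, which inactivates ERK and JNK, showed the widest change of the family. Its log2 values were 7.60, 7.36, 7.53 and 7.99 in Cic-L-null mice, against 6.89, 6.40, 6.72 and 6.70 in wild-type mice. Every mutant array lay above every wild-type array, and replicate 4 was the highest mutant. Dusp4 averaged 7.62 ± 0.26 in Cic-L-null mice and 6.68 ± 0.21 in wild-type mice (SD, n = 4 each), so that it rose by 0.94 (SE 0.14, 95% interval 0.64 to 1.24), or 1.92-fold (limma adjusted p = 0.0301). It had the third largest rise of all 20353 genes. Since whole cerebellum was measured, more cells that express a gene and more RNA per cell cannot be told apart, for this and all following genes.

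All 6 probe sets of Dusp4 were higher in Cic-L-null mice, with a median difference of 1.05, and in 5 of them the groups did not overlap. Probe set 10571317 was the tightest, with 8.21, 8.23, 8.27 and 8.47 in Cic-L-null mice, against 7.68, 7.59, 7.77 and 7.69 in wild-type mice, a difference of 0.61 (SE 0.092). Probe set 10571318 had 8.11, 8.25, 8.50 and 8.82 in Cic-L-null mice, against 7.58, 6.73, 7.29 and 7.26 in wild-type mice, a difference of 1.20 (SE 0.21). These 2 neighbours in the numbering thus differed in size while neither overlapped between the groups. Probe set 10571316 differed by 0.90 (SE 0.15) and probe set 10571315 by 1.21 (SE 0.30). The signal of 10571315 was dim, with a mean of 6.25 in Cic-L-null and 5.04 in wild-type mice. Probe set 10571314 differed by 1.20 (SE 0.29), where wild-type replicate 2 had 5.79 and the other wild-type arrays 6.90 to 7.16. Only in probe set 10571313 did the groups overlap, with 7.18 to 7.99 in Cic-L-null mice against 6.80 to 7.23 in wild-type mice and a difference of 0.52 (SE 0.18).

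Dusp5, a nuclear phosphatase specific for ERK, had log2 values of 9.56, 9.62, 9.68 and 9.66 in Cic-L-null mice, against 9.40, 9.35, 9.38 and 9.37 in wild-type mice. The arrays of each group lay close together and the groups did not overlap. The difference was 0.25 (SE 0.053, 95% interval 0.14 to 0.37, limma adjusted p = 0.117), which did not pass over all genes, although it did with a trended and robust variance (adjusted p = 0.0281). Its probe sets were uneven. Probe sets 10463948, 10463949 and 10463950 differed by 0.35 (SE 0.084), 0.35 (SE 0.083) and 0.36 (SE 0.075) with no overlap, whereas 10463947 differed by 0.20 (SE 0.094) and 10463946 by 0.0030 (SE 0.076), both with overlap.

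Dusp1, an immediate early gene whose product acts on p38, JNK and ERK, did not pass the test. It had 10.51, 10.64, 10.99 and 10.65 in Cic-L-null mice, against 9.95, 10.84, 10.68 and 10.66 in wild-type mice, with overlapping groups. The difference was 0.16 (SE 0.18, 95% interval -0.23 to 0.55, limma adjusted p = 0.858). Wild-type replicate 1 was the lowest of the 8 arrays in all 4 probe sets of the gene, and without it the difference was -0.032 (adjusted p = 0.921). Leaving out Cic-L-null replicate 3 gave 0.066, and leaving out wild-type replicate 2 gave 0.27. The mean over 16 immediate early genes was 7.60, 7.64, 7.91 and 7.77 in Cic-L-null mice, against 7.50, 7.84, 7.73 and 7.81 in wild-type mice, with the same wild-type array lowest. Cic-L-null replicate 3 was the highest array both for Dusp1 and for that mean. Gene by gene the picture was mixed. Wild-type replicate 1 was the lowest array in 7 of the 16 genes and Cic-L-null replicate 4 in 6. Jun, at 9.91, was highest in wild-type replicate 1. The part of such shifts of the mean in the Dusp1 values was not tested.

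Dusp2, known mainly from activated immune cells, had 6.68, 6.75, 6.55 and 6.59 in Cic-L-null mice, against 6.69, 6.91, 6.78 and 6.81 in wild-type mice. The groups overlapped through wild-type replicate 1, and the difference was -0.16 (SE 0.069, limma adjusted p = 0.518). All 4 probe sets differed below 0, from -0.33 (SE 0.11) in 10475783, without overlap, to -0.036 (SE 0.085) in 10475788. All 10 genes of the family had a mean above the dim limit of 6.21, the 95th percentile of the means of 983 olfactory receptor genes.

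**Figure D2:**
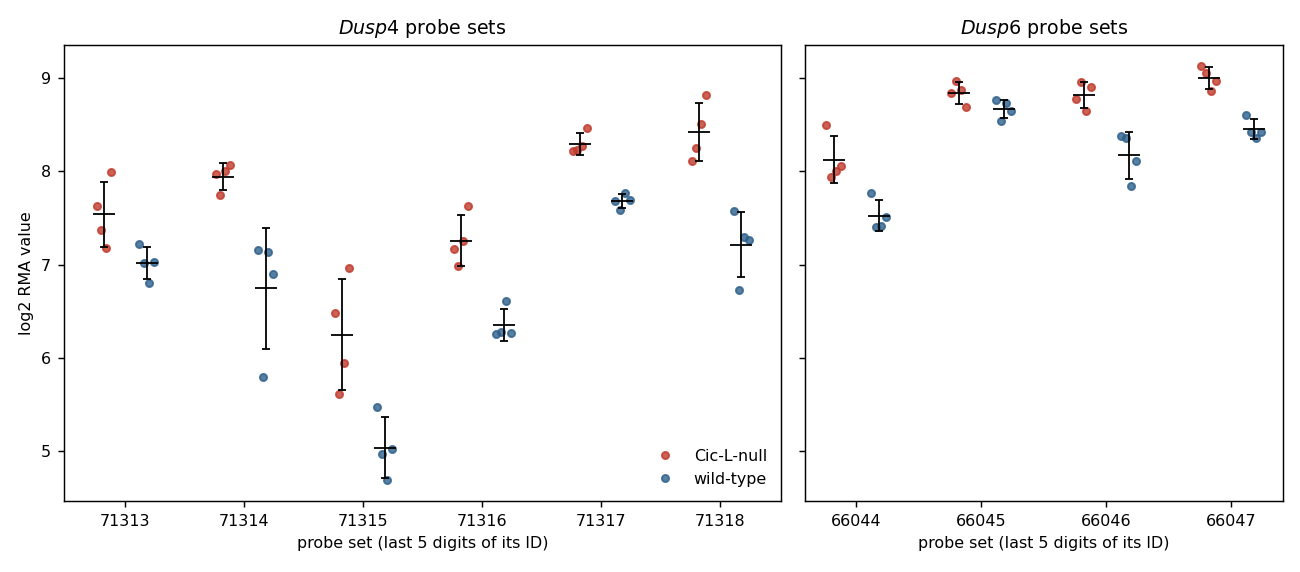
Log2 RMA value of every probe set of Dusp4 (6) and Dusp6 (4), 1 point per array (Cic-L-null red, wild-type blue, n = 4 each), with the mean and SD in black. The groups overlap in Dusp4 probe set 10571313 and Dusp6 probe set 10366045 and are separate in the other 8 probe sets.

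Among the cytoplasmic phosphatases, Dusp6, which is selective for ERK and is a standard marker of ERK feedback, was the member that changed. Its log2 values were 8.81, 8.73, 8.60 and 8.65 in Cic-L-null mice, against 8.38, 8.18, 8.08 and 8.17 in wild-type mice. Wild-type replicate 1 was the highest of its group and still lay below every mutant array. Dusp6 averaged 8.70 ± 0.093 in Cic-L-null mice and 8.20 ± 0.12 in wild-type mice (SD, n = 4 each) and rose by 0.49 (SE 0.076, 95% interval 0.32 to 0.66), or 1.41-fold (limma adjusted p = 0.0447). Probe sets 10366044, 10366046 and 10366047 differed by 0.60 (SE 0.15), 0.65 (SE 0.14) and 0.55 (SE 0.097) without overlap. Probe set 10366045 stood apart at 0.17 (SE 0.095), with 8.84, 8.96, 8.87 and 8.69 in Cic-L-null mice, against 8.76, 8.54, 8.73 and 8.64 in wild-type mice.

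Both calls depended on the summary, the test and the set of arrays. Neither gene passed with the median of its probe sets (adjusted p = 0.161 for Dusp4 and 0.175 for Dusp6), with Y-linked expression as a covariate (0.0601 each), with the replicate number as a block (0.0572 each) or with the unmoderated test (0.247 and 0.209), and Dusp6 did not pass over probe sets above the dim limit (0.0549). Without wild-type replicate 1 they held, with differences of 1.01 for Dusp4 (limma adjusted p = 0.0384) and 0.55 for Dusp6 (adjusted p = 0.0322). Leaving out any other array ended both. For Dusp4 the adjusted p was 0.0846, 0.0592, 0.0527 and 0.0845 without Cic-L-null replicates 1, 2, 3 and 4 in turn, and 0.0995, 0.0899 and 0.120 without wild-type replicates 2, 3 and 4. For Dusp6 it was 0.118, 0.134, 0.0527 and 0.132 without the same Cic-L-null replicates and 0.133, 0.106 and 0.180 without the same wild-type ones.

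The close relatives of Dusp6 did not pass the test. Dusp7, the other widely expressed ERK phosphatase of the cytoplasm, had 9.02, 9.03, 8.97 and 8.85 in Cic-L-null mice, against 9.17, 9.06, 8.93 and 9.00 in wild-type mice. These values overlapped, with a difference of -0.073 (SE 0.071, 95% interval -0.23 to 0.083, limma adjusted p = 0.838) and all 3 probe sets between -0.13 and -0.032. Single arrays moved this value, to -0.032 without Cic-L-null replicate 4, -0.030 without wild-type replicate 1 and -0.11 without wild-type replicate 3. The X-linked Dusp9, known for its role in placenta, had 6.82, 6.83, 6.71 and 6.64 in Cic-L-null mice, against 6.66, 6.90, 6.95 and 6.84 in wild-type mice. Its difference was -0.092 (SE 0.076, 95% interval -0.26 to 0.078, adjusted p = 0.80), with 1 probe set above and 3 below 0. The difference of Dusp9 was -0.054 without Cic-L-null replicate 4 and also without wild-type replicate 3, -0.15 (limma adjusted p = 0.374) without wild-type replicate 1, and -0.042 over its probe sets above the dim limit. The upper bounds of both intervals lay below the lower bound of the Dusp6 interval, 0.32, but the difference between the genes was not tested.

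None of the JNK and p38 phosphatases passed, and their differences lay on both sides of 0. Dusp10 had 9.35, 9.43, 9.33 and 9.25 in Cic-L-null mice, against 9.09, 9.10, 9.08 and 9.23 in wild-type mice. The groups were separated by a narrow gap, since wild-type replicate 4 reached 9.23 and Cic-L-null replicate 4 lay at 9.25. The difference was 0.21 (SE 0.063, 95% interval 0.076 to 0.35, limma adjusted p = 0.278) and did not pass over all genes. All 5 probe sets differed above 0, from 0.011 (SE 0.086) in 10352453 to 0.34 (SE 0.18) in 10352449, and 2 had no overlap.

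Dusp16, which acts mainly on JNK, had 8.64, 8.64, 8.82 and 8.65 in Cic-L-null mice, against 8.90, 8.82, 8.78 and 8.78 in wild-type mice. Cic-L-null replicate 3 lay within the wild-type range and the other 3 mutants below it. The gene difference was -0.13 (SE 0.063, limma adjusted p = 0.581), but its 9 probe sets disagreed. In 5 of them all mutant arrays lay below all wild-type arrays, led by 10548743 with 10.10, 10.21, 10.34 and 10.14 in Cic-L-null mice, against 10.48, 10.61, 10.63 and 10.51 in wild-type mice, a difference of -0.36 (SE 0.089). Probe set 10548744 differed by 0.44 (SE 0.31) in the other direction with overlapping groups. The median over the 9 probe sets was -0.23.

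Dusp8, a phosphatase enriched in brain, lies on the chromosome that carries Cic. It had 9.95, 9.98, 10.07 and 9.89 in Cic-L-null mice, against 10.10, 10.02, 10.03 and 10.09 in wild-type mice. The groups overlapped and the difference was -0.087 (SE 0.059, 95% interval -0.22 to 0.043, limma adjusted p = 0.728). Of its 7 probe sets 5 differed below 0, and 10569286 did so without overlap, at -0.21 (SE 0.089).

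**Figure D3:**
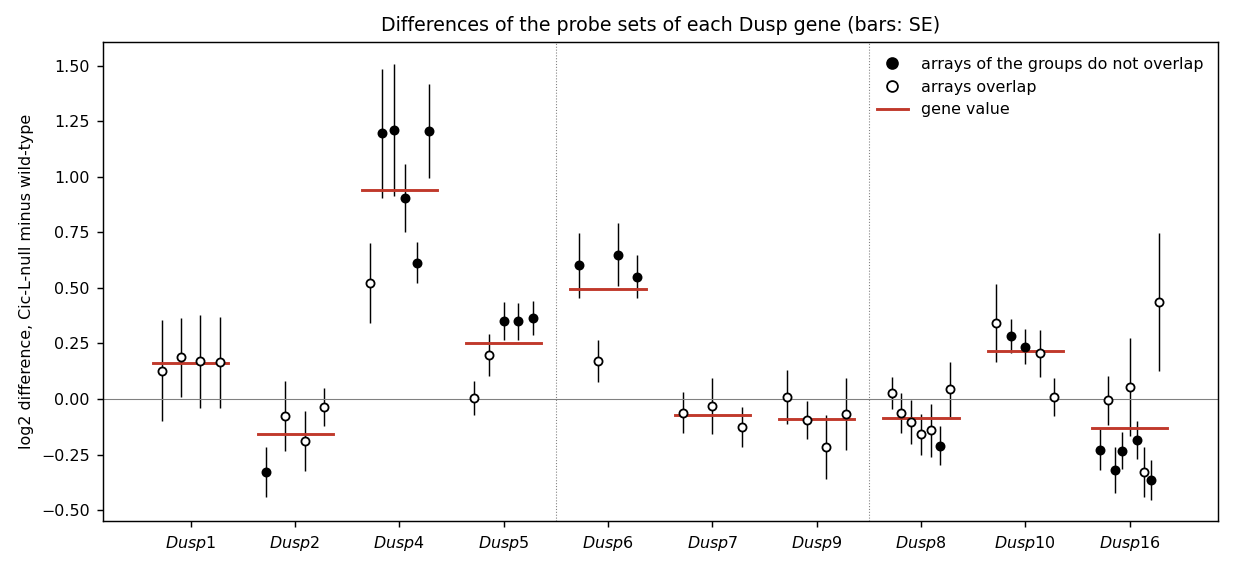
Log2 difference, Cic-L-null minus wild-type, of each of the 51 Dusp probe sets (points, bars are the SE of the fit over all probe sets), filled where the 4 arrays of each group do not overlap, with the difference of the gene value as a red line. Dusp4, Dusp5, Dusp6 and Dusp10 have filled points above 0 and Dusp2, Dusp8 and Dusp16 below 0.

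Over the 51 probe sets, 29 differed above and 22 below 0. The groups did not overlap in 13 that were higher, where 2.39% of all 241576 probe sets were so, and in 7 that were lower, against 1.91% of all. Probe sets of 1 gene share their RNA, so these counts are not independent. In the limma fit over all probe sets 0 of the 51 passed at an adjusted p under 0.05, with 21 at an unadjusted p under 0.05. In that fit 0.000414% of all probe sets passed and 6.80% had an unadjusted p under 0.05. The smallest adjusted p among the 51 was 0.239, in Dusp4. Of the 51, 4 had a mean below 6.31, the same percentile over olfactory receptor probe sets, and these were 2 of Dusp9 and 1 each of Dusp2 and Dusp4.

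Averaged by group, the 4 nuclear genes had mean log2 values of 8.59, 8.59, 8.68 and 8.72 in Cic-L-null mice, against 8.23, 8.38, 8.39 and 8.38 in wild-type mice, a difference of 0.30, and 0.086 with Dusp4 left out. The 3 cytoplasmic genes had 8.22, 8.20, 8.09 and 8.04 in Cic-L-null mice, against 8.07, 8.05, 7.99 and 8.01 in wild-type mice, a difference of 0.11, and -0.082 with Dusp6 left out. The JNK and p38 genes had 9.31, 9.35, 9.41 and 9.26 in Cic-L-null mice, against 9.36, 9.31, 9.30 and 9.37 in wild-type mice, a difference of -0.00061, and -0.11 with Dusp10 left out. In each group the gene left out was the one with the largest rise, so a lower mean difference was fixed by that choice. No test was made on these means.

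Promoter sequence was set beside these values because Capicua binds a short octamer. RefSeq promoters of GRCm38.p6, 250 bases before to 50 after a start site of the gene, were found for 8 of the 10 genes, all but Dusp4 and Dusp9. The octamers TGAATGAA, TGAATGGA, TCAATGAA and TCAATGGA were searched on both strands, and 3.84% of 32851 promoters held at least 1. Of the 8 Dusp promoters, those of Dusp6 and Dusp16 did. Dusp6 held the octamer TCCATTGA, which is TCAATGGA on the other strand, at 2 places, with first bases at -24 and 2 from the start site. Dusp16 held TTCATTCA, which is TGAATGAA on the other strand, at -95. The Dusp16 window lies inside the gene, which spans chr6:134715468-134807063 and is read from the upper end. Its start site is thus an inner start site and not the outermost of the gene. The Dusp8 window also lies inside its gene. Also searched were TGACGTCA, the cyclic AMP response element (CRE) bound by CREB, found in 1.79% of all promoters and in those of Dusp1 and Dusp8, and the CArG box bound by serum response factor, found in 1.63% and in that of Dusp5. Each sequence below is 180 bases on the gene's own strand, to 30 bases past the start, with capitals for the octamer in Dusp6 (chr10:99263081-99263260, plus strand) and Dusp16 (chr6:134792599-134792778, minus strand), for the CRE in Dusp1 (chr17:26508443-26508622, minus strand) and for 2 abutting CArG boxes in Dusp5 (chr19:53528995-53529174, plus strand).
Dusp6: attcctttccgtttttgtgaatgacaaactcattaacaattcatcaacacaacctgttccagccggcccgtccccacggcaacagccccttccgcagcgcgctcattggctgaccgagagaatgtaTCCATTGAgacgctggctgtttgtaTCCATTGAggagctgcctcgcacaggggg
Dusp16: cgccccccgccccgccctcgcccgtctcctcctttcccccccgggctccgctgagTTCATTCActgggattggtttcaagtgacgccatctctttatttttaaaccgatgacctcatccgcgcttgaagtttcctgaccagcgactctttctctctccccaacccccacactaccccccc
Dusp1: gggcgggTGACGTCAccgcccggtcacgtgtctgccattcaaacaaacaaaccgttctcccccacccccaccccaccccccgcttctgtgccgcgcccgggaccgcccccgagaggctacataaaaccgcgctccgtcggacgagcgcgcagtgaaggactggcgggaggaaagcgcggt
Dusp5: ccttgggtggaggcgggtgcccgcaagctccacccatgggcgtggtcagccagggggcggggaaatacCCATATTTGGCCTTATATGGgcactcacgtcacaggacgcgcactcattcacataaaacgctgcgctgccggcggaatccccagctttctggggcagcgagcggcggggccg
The octamer was present both in Dusp6, which rose, and, before the inner start site, in Dusp16, whose gene value differed by -0.13 without passing. A match of letters is a description of this window and shows no binding.

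None of the surrounding MAP kinase genes passed the test, where 0.138% of all genes did. Across 7 other lists (84 measured genes), 55 differed above and 29 below 0, where 47.0% of all genes differed above 0. With limma 0 of the 84 passed over all genes, which is close to the share over all genes. An unadjusted p under 0.05 was found in 17 of the 84, against 9.26% of all genes. The groups did not overlap in 11 that were higher and 3 that were lower, against 3.02% and 2.92% of all genes. The list of 10 other feedback inhibitors and ETS factors of ERK had the highest median of the 7, 0.17, with 9 members above 0. Its mean was 8.96, 9.03, 8.92 and 8.96 in Cic-L-null mice, against 8.93, 8.71, 8.66 and 8.74 in wild-type mice. The groups overlapped in this mean through wild-type replicate 1. Members of this list with the smallest limma p were Spry4, a Sprouty inhibitor, at 0.62 (SE 0.11, adjusted p = 0.0755), the ETS factor gene Etv4 at 0.34 (SE 0.086, adjusted p = 0.211) and the Sprouty-related Spred3 at 0.20 (SE 0.063, adjusted p = 0.312). The 16 immediate early genes had a median of -0.025, with 8 above and 8 below 0. Those with the smallest limma p were Jun at -0.36 (SE 0.10), Arc at -0.26 (SE 0.075) and Egr1 at -0.18 (SE 0.077). Among those above 0 with a larger SE were Fos at 0.33 (SE 0.23), Nr4a1 at 0.31 (SE 0.21) and Nr4a3 at 0.29 (SE 0.27).

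Other enzymes that dephosphorylate MAP kinases held 1 gene of a size like Dusp6. Ptpn5, the neuronal tyrosine phosphatase STEP, had 8.28, 8.28, 8.33 and 8.21 in Cic-L-null mice, against 7.84, 7.72, 7.88 and 7.25 in wild-type mice. The groups did not overlap and the difference was 0.60 (SE 0.12, limma adjusted p = 0.105). The other 2 leading genes by limma p in that list of 8 were Ptprr at 0.14 (SE 0.090) and Ppm1a at 0.091 (SE 0.052). The 15 atypical dual specificity phosphatases, which lack the kinase-binding domain of the 10 genes, had a median of 0.011. Those with the smallest limma p were Dusp15 at 0.30 (SE 0.071, adjusted p = 0.185), Styx, a catalytically inactive member, at 0.37 (SE 0.099, adjusted p = 0.230) and Dusp26 at 0.26 (SE 0.070, adjusted p = 0.251).

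No gene of the kinase lists passed over all genes, where 0.138% of all genes did. The 13 measured MAP kinase genes had a median of 0.024 and ran from -0.10 in Mapk11, a p38 kinase, to 0.13 (SE 0.055, limma adjusted p = 0.488) in Mapk7, which encodes ERK5. Nlk, an atypical member, was at 0.099 (SE 0.059). The 7 MAP kinase kinases had a median of -0.012, from -0.081 in Map2k2, an ERK activator, to 0.028, with Map2k6 at -0.041 (SE 0.092) and Map2k7 at -0.032 (SE 0.064). The 15 scaffolds and docking partners had a median of 0.039, with the ribosomal S6 kinase gene Rps6ka3 at 0.21 (SE 0.071), the scaffold gene Ksr2 at 0.19 (SE 0.068) and Rps6ka5, which encodes the kinase MSK1, at 0.19 (SE 0.077).

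**Figure D4:**
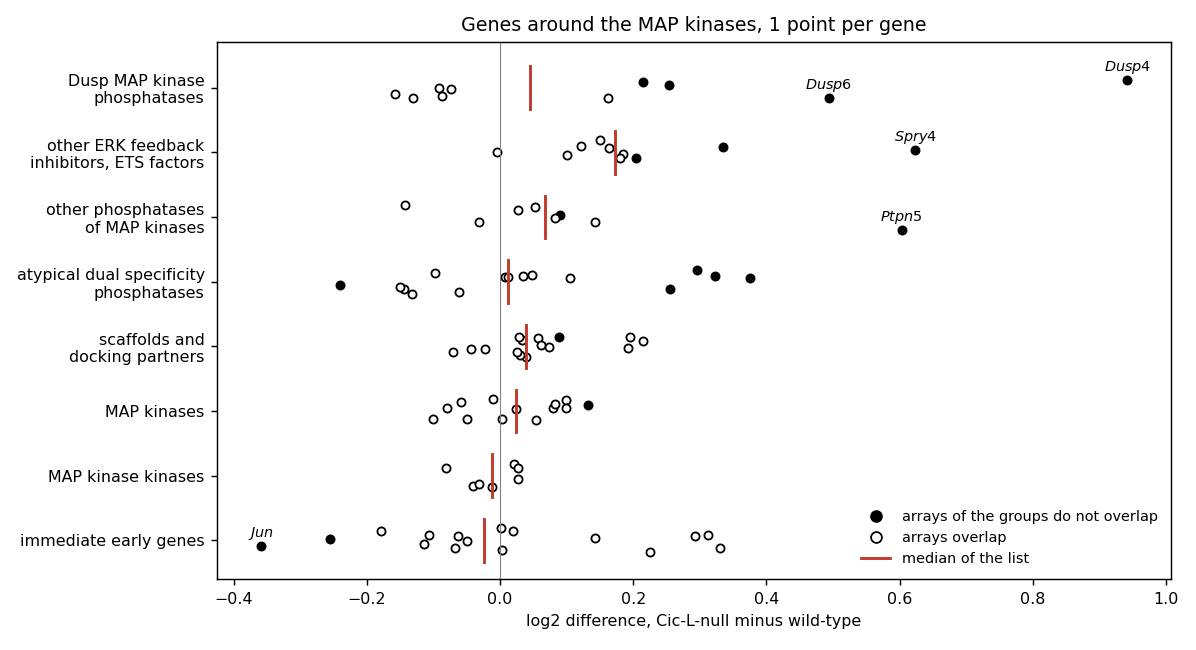
Log2 difference, Cic-L-null minus wild-type, of each gene of the Dusp family and of 7 lists around the MAP kinases (1 point per gene, filled where the 4 arrays of each group do not overlap), with the median of each list in red. Dusp4 at 0.94 lies furthest to the right, followed by Spry4 at 0.62, Ptpn5 at 0.60 and Dusp6 at 0.49.

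Profiles most like those of Dusp4 and Dusp6 were sought among all genes by the root mean square difference between log2 profiles over the 8 arrays, each centred on its own mean. For Dusp6, whose own centred profile had a root mean square of 0.26, the nearest were Shc4, an adaptor of receptor tyrosine kinases (0.065), Dcx, the doublecortin gene of young neurons (0.065), and Arrb1, the beta-arrestin gene (0.073). Shc4 had 8.64, 8.47, 8.35 and 8.56 in Cic-L-null mice, against 8.19, 8.05, 7.99 and 8.09 in wild-type mice, with replicate 1 highest in both groups, as in Dusp6. For Dusp4, with 0.51, the nearest were Cables1, a partner of cyclin-dependent kinases (0.21), 9530091C08Rik (0.22) and the period gene Per2 (0.22). Their own differences were 0.58, 0.56 and 0.75, below the 0.94 of Dusp4. All these genes were picked for likeness over the same 8 arrays, so their rise and their likeness array by array follow from the choice. By limma, Shc4 (adjusted p = 0.0753), Dcx (0.0644) and 9530091C08Rik (0.116) were not called. Arrb1 (0.0258), Cables1 (0.0301) and Per2 (0.0397) were, where 0.138% of all genes were called.

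Mean marker levels of 2 kinds of glia did not overlap between the groups. Of all genes taken singly, 2.92% lay lower in Cic-L-null mice without overlap, and no such share was computed for means over lists. The mean over 5 markers of Bergmann glia and astrocytes lay from 9.77 to 9.82 in Cic-L-null mice and from 9.86 to 9.99 in wild-type mice, with all 5 differences below 0. These differences ran from -0.33 in Gdf10 to -0.031 in Slc1a3 and -0.015 in Hopx. Of these markers only Gdf10 did not overlap between the groups. The mean over 4 oligodendrocyte markers lay from 10.31 to 10.43 in Cic-L-null mice and from 10.47 to 10.54 in wild-type mice, again with all 4 differences below 0. They ran from -0.30 in Mobp to -0.0044 in Mog, and the groups overlapped in Mag and Mog. No marker of these lists passed over all genes, where 0.138% of all genes did. The 5 choroid plexus markers overlapped, from 7.43 to 8.55 in Cic-L-null mice and from 8.14 to 8.57 in wild-type mice, with Cic-L-null replicate 3 lowest and all 5 differences below 0 (median -0.28). The 4 endothelial markers overlapped in their mean, from 8.07 to 8.53 in Cic-L-null mice and from 8.32 to 8.56 in wild-type mice, with 3 of 4 differences below 0. Among them Cldn5, a tight junction gene, did not overlap, with 8.38 to 8.66 in Cic-L-null mice against 8.71 to 8.86 in wild-type mice and a difference of -0.27 (SE 0.070, limma adjusted p = 0.218), while Slco1a4, a transporter gene, differed by -0.58 (SE 0.32) with overlap. Pecam1 differed by -0.078 (SE 0.085) and Flt1, in the other direction, by 0.067 (SE 0.057), both with overlap. The 5 microglia markers overlapped as well, from 7.45 to 7.59 in Cic-L-null mice and from 7.49 to 7.55 in wild-type mice. The forebrain markers Neurod6, with means of 5.85 in Cic-L-null and 6.11 in wild-type mice, and Tbr1, with 5.81 in Cic-L-null and 5.90 in wild-type mice, lay below the dim limit. The third forebrain marker measured, Emx1, lay above it, with means of 7.51 in Cic-L-null and 7.59 in wild-type mice. The part of these shifts in the Dusp values was not tested.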

How the data were processed

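RNA of cerebellum from 4 Cic-L-null and 4 wild-type mice was measured on 1 array each. Groups and replicate numbers came from the sample titles. The authors deposited log2 values, which RMA in Affymetrix Power Tools produced according to the submitters' processing notes. Tool versions and a genome build were not stated there. The deposited table holds 241576 probe sets with 0 missing values, and array medians lay between 7.82 and 7.88. Precision is limited by the number of arrays. The design text counts 4 mice per group.

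Gene names came from the platform annotation, updated through RefSeq synonyms. Of the probe sets, 212097 had 1 symbol, 4475 several and 25004 none. The probe set annotated 5530400B01Rik, an older name of Dusp8, was kept out of Dusp8 by the rule on symbols. Gene values were fitted with limma 3.58.1 in R 4.3.3 (lmFit, eBayes without trend, group as the only term, no filter on dim genes), adjusted over all genes by Benjamini-Hochberg and called under 0.05; probe sets were fitted likewise. The fit was tested on simulated data. The genes and lists were chosen with earlier results of these data known. The text names Cic, the 10 genes, up to 3 genes with the smallest p of each pathway list, the 3 profiles nearest to Dusp4 and Dusp6, and cell type markers. It also names some further members of these lists, to show the spread of a list. Alternatives covered probe set summaries, dim limits, scaling, variance, array weights, covariates, a replicate block and each array left out.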

Additional observations from a re-analysis of the deposited data

Results flagged for a closer look

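Values were looked at for single arrays far from the other 3 of their group, by the gap to the nearest array as a share of the group's range (Dixon's 95% limit). Chance alone marks about 1 in 20 groups, and 7 of 102 were marked. In Dusp16, Cic-L-null replicate 3 stood at 8.82 over 8.64 to 8.65 (share 0.926). In Dusp10, wild-type replicate 4 stood at 9.23 over 9.08 to 9.10 (0.862). In the mean of the nuclear Dusp genes, wild-type replicate 1 stood at 8.23 below 8.38 to 8.39 (0.903), the array that is also lowest in Dusp1. In Dusp4 probe set 10571316, wild-type replicate 3 stood at 6.61 over 6.25 to 6.28 (0.929). Among other genes, wild-type replicate 3 was low in Dusp15 at 8.27 (0.930), and Cic-L-null replicate 2 was high in Etv4 at 8.32 (0.878) and in Arrb1 at 10.79 (0.873).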

How the results depend on the processing

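Dusp4 and Dusp6 stayed above 0 in every alternative run, but groups that do not overlap make this likely in advance. Their calls held among genes above the dim limit, with median centring, quantile normalisation, a trended and robust variance, array weights and the first principal component of the residuals as covariate, and without wild-type replicate 1. With the median of the probe sets Dusp4 was at 0.84 (adjusted p = 0.161) and Dusp6 at 0.52 (adjusted p = 0.175), and 0 of the 10 genes and 2 of all genes were called. With unmoderated tests (0.94 and 0.49) 0 genes of the family and 0 of all were called. With probe sets above the dim limit Dusp6 (0.49, adjusted p = 0.0549) was lost and 1 of the 10 genes remained called. With the Y-linked covariate, from 3 genes, Dusp4 was at 0.89 and Dusp6 at 0.46 (adjusted p = 0.0601 each), with 0 of the 10 and 18 of all genes called. The count over all genes was 28, and 69 among genes above the dim limit, 130 with a trended and robust variance, where Dusp5 was called too (0.25), and 54 with array weights. Leaving out 1 array gave 0 to 37 genes, 0 to 2 of the family, 0.82 to 1.03 for Dusp4, 0.45 to 0.55 for Dusp6 and -0.032 to 0.27 for Dusp1, which turned to -0.032 without wild-type replicate 1. The fewer arrays of those fits are part of their construction; otherwise the cause was not tested.

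With the replicate numbers as a block, Dusp4 (0.94) and Dusp6 (0.49) had an adjusted p of 0.0572 each, with 0 of the 10 genes and 0 of all genes called. Deviations of same-numbered arrays from their group means correlated, across genes, at 0.00032 to 0.22, and those of different-numbered arrays at -0.23 to 0.13. The highest values of all, 0.22 and 0.21, were those between replicates 1 and between replicates 3. By Y-linked genes and Xist, replicates 1, 3 and 4 were each of 1 sex in both groups, with 0.026 for replicates 4. Replicates 2, at 0.00032, differed in sex. The part of sex in these values was not tested. The labels do not say whether equal numbers mark paired animals. Pairing was not assumed in the main fit, and these correlations do not settle it. The Dusp probe set count stayed at 0 in its 10 alternatives, and the 3 group means moved by less than 1 SD in theirs. With the probe set annotated 5530400B01Rik added, an alternative chosen after seeing the data, Dusp8 differed by -0.089.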
